A study of Homo sapiens with 16 samples.

Results

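A set of 10 genes of the beta protocadherin cluster on human chromosome 5 was followed across 3 cancer cell lines with and without functional STAG2: PCDHB2, PCDHB3, PCDHB4, PCDHB5, PCDHB7, PCDHB9, PCDHB10, PCDHB11, PCDHB12 and PCDHB14. They were chosen by name, as the array rows annotated to 1 of these genes alone, and are 10 of 18417 genes with such a row. Each of the 10 had exactly 1 row. Expression was measured on Affymetrix Human Gene 1.0 ST arrays, 1 array for each of 16 cultures of untreated cells. H4 and 42MGBA are labelled glioblastoma cell lines with a mutant STAG2, and HCT116 is a colorectal cancer line with wild-type STAG2.

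The STAG2-deficient H4 group held 3 arrays: 1 of parental cells and 2 of clones 10 and 12, which did not recombine and keep the mutation. The STAG2-corrected H4 group held 3 knock-in clones after Cre, named 8-1, 8-3 and 88-1, so that 2 of the 3 carry the same parent number. Deficient 42MGBA was represented by 3 arrays, 1 of parental cells and 2 of the pre-Cre knock-in clones 53 and 92. Corrected 42MGBA was represented by the post-Cre clones 53-1, 53-7 and 92-6 (n = 3). HCT116 was represented by STAG2 knockout clones 7 and 21 (n = 2) and by the non-recombinant wild-type clones 24 and 27 (n = 2). All clones of a line descend from that line, so p-values rest on the spread between clones and not between donors or tumours. That spread is 1 estimate per gene, shared by the groups of all 3 lines, and not that of a single line.

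Clustered protocadherins are cadherin-type adhesion proteins of the cell surface, best known in neurons, where each cell expresses a subset of isoforms that help it to tell its own branches from those of other cells. Their genes lie in 3 neighbouring clusters, named alpha, beta and gamma. A beta gene consists of a single large exon behind its own promoter, and unlike alpha and gamma genes it shares no constant exons with its neighbours. Promoter choice in the clusters depends on the DNA-binding protein CTCF and on cohesin, the ring complex of which STAG2 is one of the alternative STAG subunits, and most clustered promoters hold a conserved element with a CGCT box. The separate roles of single beta isoforms are little known, so the genes are ordered by the size of the difference where no role sets them apart.

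A promoter window of 250 bases before and 50 bases after the annotated gene start was found for 9 of the 10 genes in RefSeq (GRCh38.p14, plus strand). PCDHB11 is named only. The sequences are shown because CTCF and cohesin are known to act on promoter choice in the clusters, and because the 9 windows share a stretch of letters that few other promoters hold. The longest run present in all 9 was 9 bases long and is printed in capitals, with 20 bases before it and 24 after it.
PCDHB2: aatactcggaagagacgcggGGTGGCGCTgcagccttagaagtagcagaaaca
PCDHB3: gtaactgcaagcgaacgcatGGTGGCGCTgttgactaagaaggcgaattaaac
PCDHB4: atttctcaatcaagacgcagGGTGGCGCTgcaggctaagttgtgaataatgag
PCDHB5: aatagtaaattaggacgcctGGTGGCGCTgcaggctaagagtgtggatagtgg
PCDHB7: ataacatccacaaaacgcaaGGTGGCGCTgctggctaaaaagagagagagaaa
PCDHB9: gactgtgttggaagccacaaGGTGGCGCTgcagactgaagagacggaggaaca
PCDHB10: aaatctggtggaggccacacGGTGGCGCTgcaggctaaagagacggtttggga
PCDHB12: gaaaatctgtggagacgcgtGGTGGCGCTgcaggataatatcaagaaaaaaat
PCDHB14: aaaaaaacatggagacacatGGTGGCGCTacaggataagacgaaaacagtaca
These stretches lie at chr5:141094535-141094587 for PCDHB2, chr5:141100384-141100436 for PCDHB3, chr5:141121714-141121766 for PCDHB4, chr5:141135170-141135222 for PCDHB5, chr5:141172557-141172609 for PCDHB7, chr5:141187065-141187117 for PCDHB9, chr5:141192290-141192342 for PCDHB10, chr5:141208634-141208686 for PCDHB12 and chr5:141223254-141223306 for PCDHB14. The start of the run lay 16 to 84 bases before the annotated gene start, with a median of 67 bases. On both strands the run GGTGGCGCT was found in 143 of 27305 RefSeq promoter windows of the same length, or 0.524%, and it contains the 4 letters CGCT, which alone were found in 69.4% of windows.

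The run was not used to choose the genes, but it was read from them, so its presence in all 9 is a description. Among the other beta genes with a window, it was present in PCDHB8, PCDHB13, PCDHB15 and PCDHB16 and not in PCDHB1, that is in 4 of 5. None of 13 alpha and 20 gamma windows held it (0 in each). The positions around the run were also shared: a C stood 5 and 3 bases before it, a G at the 4th and a T at the 7th base after it and an A at the 9th in all 9 windows. With these letters the pattern CNCNNGGTGGCGCTNNNGNNTNA was found in 13 of 27305 windows, and all 13 were beta protocadherin genes. The windows of the 9 genes were poor in G and C, with a median of 38.7% (33.3% to 45.3%) against 58.3% over all windows. The letters TATAAA were found in 1 of the 9 windows and in 12.0% of all, on either strand. A core pattern for CTCF sites was found in 0 of the 9 windows and in 0 of the 5 other beta windows. Of all 27305 windows, 60 held it, or 0.220%. A match is a description of these letters and not evidence of binding, and no binding was measured. The lack of a match to 1 pattern is likewise not evidence against binding.

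**Figure D1:**
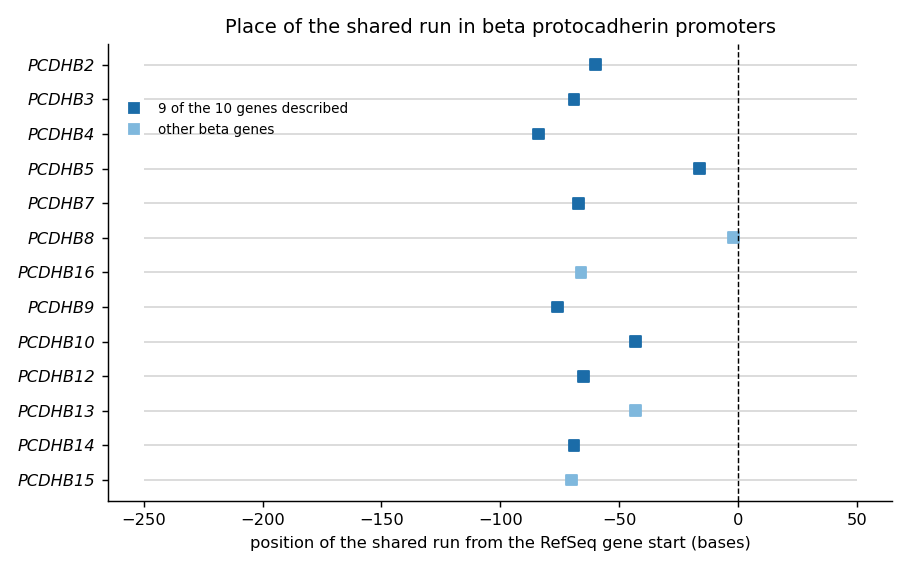
Position of the run shared by the beta promoters, in bases from the RefSeq gene start (dashed line, negative values before it), for 9 of the 10 genes described (dark) and 4 other beta genes (light). Grey lines are the windows of 250 bases before to 50 bases after the start, and in the 9 genes the run starts 16 to 84 bases before it.

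Values are on the log2 scale of the deposited, normalised table, in which a difference of 1 is a doubling of signal. Medians of single arrays lay between 6.23 and 6.30 in H4 and between 6.24 and 6.29 in HCT116, but at most at 5.05 in 42MGBA, whose arrays are thus on another scale. Levels in 42MGBA were therefore set against the other lines only as percentile ranks within an array, where 100 is the brightest row. The lowest correlation between 2 arrays of a line was 0.986, and no array stood apart by this measure. STAG2 itself was at 6.57, 6.96 and 6.62 in deficient H4 (parental, 10, 12), against 8.94, 8.91 and 8.87 in corrected H4. In HCT116 it was at 6.57 and 7.14 in the knockout clones, against 9.28 and 9.30 in wild-type clones. STAG2 fell by 2.19 in H4 (SE 0.19, adjusted p = 2.37e-05, limma) and dropped by 2.44 in HCT116 (SE 0.23, adjusted p = 0.000115, limma). In 42MGBA STAG2 was at 4.75, 5.34 and 5.60 in deficient arrays (parental, 53, 92), against 5.65, 5.41 and 5.53 in corrected arrays, and these values overlap. The difference of -0.30 did not pass the test (adjusted p = 1.00, limma), so the 42MGBA labels have no check from STAG2 mRNA.

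The labelled cell types were checked against marker genes as well. Of 11 colorectal epithelial markers, 4 had a median percentile rank over 50 in H4 and 4 in 42MGBA, against 7 in HCT116. The epithelial adhesion genes EPCAM and CDH1 were between 21.7 and 26.7 in H4 and 42MGBA, against 97.0 (EPCAM) and 80.6 (CDH1) in HCT116. Intestinal markers did not set HCT116 apart: CDH17 was at 11.5 in H4, 14.9 in 42MGBA and 11.3 in HCT116, and KRT20 at 22.3 in H4, 33.2 in 42MGBA and 27.2 in HCT116. Of 11 glial and neural markers, 4 had a median percentile rank over 50 in H4 and 5 in 42MGBA, against 3 in HCT116. VIM, a filament gene of mesenchymal and glial cells, was at 96.4 in H4, 98.7 in 42MGBA and 39.9 in HCT116. Other markers of this list did not follow VIM: NES was at 45.1 in H4, 56.2 in 42MGBA and 53.8 in HCT116, and SLC1A3 at 63.8, 69.7 and 71.8 in the same order. The astrocyte filament gene GFAP was near the middle of the array in every line, at 49.8 in H4, 46.4 in 42MGBA and 49.6 in HCT116, and the glial factor OLIG2 was at 34.8, 30.2 and 34.9 in the same order. These 2 defining glial markers therefore did not set the lines labelled glioblastoma apart from the colorectal line.

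Beta protocadherin signal stood higher on the arrays of both lines labelled glioblastoma than on those of HCT116. Across the 10 genes, 45 of 60 values in 42MGBA and 41 of 60 in H4 lay above the median of their array, against 0 of 40 in HCT116. In HCT116 16 of the 40 values lay below the lower quartile of the array. PCDHB4 was low in every line and was above the array median on no array (0 of 16), and PCDHB5 was above it on 2 arrays, of 42MGBA clones 53 and 92. A level is not set against that of another gene here, since each probe set has its own response.

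**Figure D2:**
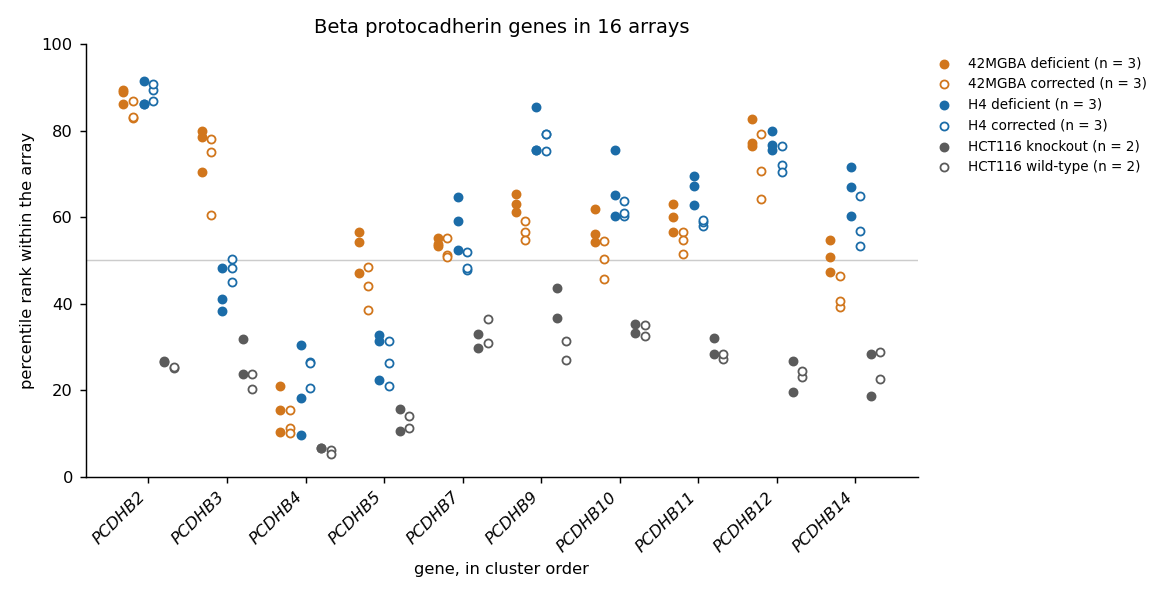
Percentile rank within the array (0 to 100, grey line at 50) of the 10 genes in cluster order, 1 point per array. Colours are the lines 42MGBA, H4 and HCT116, and filled points are deficient or knockout arrays left of open points for corrected or wild-type arrays. Points of 42MGBA and H4 lie above all HCT116 points for each gene.

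The comparison of corrected H4 with wild-type HCT116 asks how the genes differ between 2 lines with functional STAG2 whose array scales are alike. PCDHB2 was at 9.20, 9.53 and 9.74 in corrected H4 (8-1, 8-3, 88-1), against 4.54 and 4.54 in wild-type HCT116 (24, 27). The H4 values lie far above both HCT116 values, a difference of 4.95 (SE 0.21). Both HCT116 values lie at the lower quartile of their arrays (percentile ranks 25.2 and 25.3). The floor of the array may limit the size of this difference, which was not tested. PCDHB9 was at 8.12, 8.47 and 8.49 in corrected H4, against 4.67 and 4.98 in wild-type HCT116. PCDHB12 was at 7.84, 7.73 and 8.27 in corrected H4, against 4.37 and 4.48 in wild-type HCT116. Both genes differed without overlap, by 3.53 (SE 0.24) for PCDHB9 and by 3.52 (SE 0.25) for PCDHB12.

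A middle group followed. PCDHB14 differed by 2.30 (SE 0.29), with 6.52, 6.73 and 7.34 in corrected H4 against 4.80 and 4.33 in wild-type HCT116. PCDHB11 was at 6.81, 6.87 and 6.93 in corrected H4, against 4.68 and 4.77 in wild-type HCT116, and differed by 2.14 (SE 0.15). PCDHB10 was at 6.97, 7.22 and 7.05 in corrected H4, against 5.25 and 5.07 in wild-type HCT116, a difference of 1.92 (SE 0.27). In these 3 genes the 3 clones of H4 stood above the 2 of HCT116.

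The differences of the remaining 4 genes were smaller. PCDHB3 was at 5.98, 6.31 and 6.16 in corrected H4, against 4.43 and 4.16 in wild-type HCT116, a difference of 1.86 (SE 0.28). PCDHB4 was at 4.16, 4.65 and 4.63 in corrected H4, against 3.04 and 2.95 in wild-type HCT116, a difference of 1.49 (SE 0.31). These 2 genes did not overlap between the groups, and neither did PCDHB7 and PCDHB5. The share of all genes without overlap was not computed for corrected H4 against wild-type HCT116. PCDHB7 was at 6.17, 6.41 and 6.18 in corrected H4, against 4.95 and 5.36 in wild-type HCT116, a difference of 1.1 (SE 0.19). PCDHB5 was at 4.2, 4.63 and 5.02 in corrected H4, against 3.46 and 3.67 in wild-type HCT116, a difference of 1.05 (SE 0.27). The HCT116 values of PCDHB4 and PCDHB5 lay below the lower quartile of their arrays in 4 of 4 arrays, those of PCDHB3 and PCDHB12 in 3 and those of PCDHB14 in 2, so that these levels may be close to the floor of the array.

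All 10 genes passed the test as higher in corrected H4 than in wild-type HCT116, with adjusted p between 3.29e-11 for PCDHB2 and 0.00544 for PCDHB5 (limma on all 18417 genes with no filter on low values). In the same fit 18.1% of genes passed as higher. The median difference over the 10 genes was 2.03, against -0.06 over all genes. With the deficient H4 and knockout HCT116 arrays in place of the proficient ones, a comparison added after the data had been seen, the 10 genes passed again (17.5% of all genes), with a median of 2.40 and PCDHB2 at 4.77. The lines differ in origin, genotype and culture history at once, and these cannot be told apart here. In these bulk samples fewer expressing cells and less RNA per cell cannot be told apart either.

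The neighbouring genes were read in the same comparison. Of 8 other beta genes and pseudogenes with a row, 7 were higher in corrected H4 and passed the test, between 0.67 for the pseudogene PCDHB18P and 3.67 for PCDHB8. The exception was PCDHB1, the first gene of the cluster, which differed by 0.01 (SE 0.14, adjusted p = 0.983, limma with no filter) and was below the lower quartile on all 16 arrays. PCDHB1 is also the one beta gene, among those with a promoter window, that lacks the shared run, which is a description of 1 gene, noticed after its values were seen. The 20 genes flanking the 3 protocadherin clusters, 10 on either side, had a median difference of -0.18 and a range of -0.69 to 0.68, with 2 passing as higher and 9 as lower. Over all genes with no filter, 3326 of 18417 passed as higher and 4071 as lower. ZMAT2, the nearest on one side, differed by 0.13 (SE 0.11) and DIAPH1, the formin gene nearest on the other, by -0.69 (SE 0.11). Of 2 unrelated genes inside the clusters, TAF7, a TFIID subunit gene, was higher by 0.76 (SE 0.18) and SLC25A2, a mitochondrial carrier gene, differed by 0.11 (SE 0.13). Rows of 12 alpha genes were higher in 12 of 12 cases and passed the test (23.7% of the 12978 filtered genes passed as higher and 52.7% in either direction), with a median of 1.31, although alpha rows may share exons. The 1 gamma gene with a row of its own, PCDHGB4, differed by 0.07 (SE 0.20, adjusted p = 0.791, limma).

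**Figure D3:**
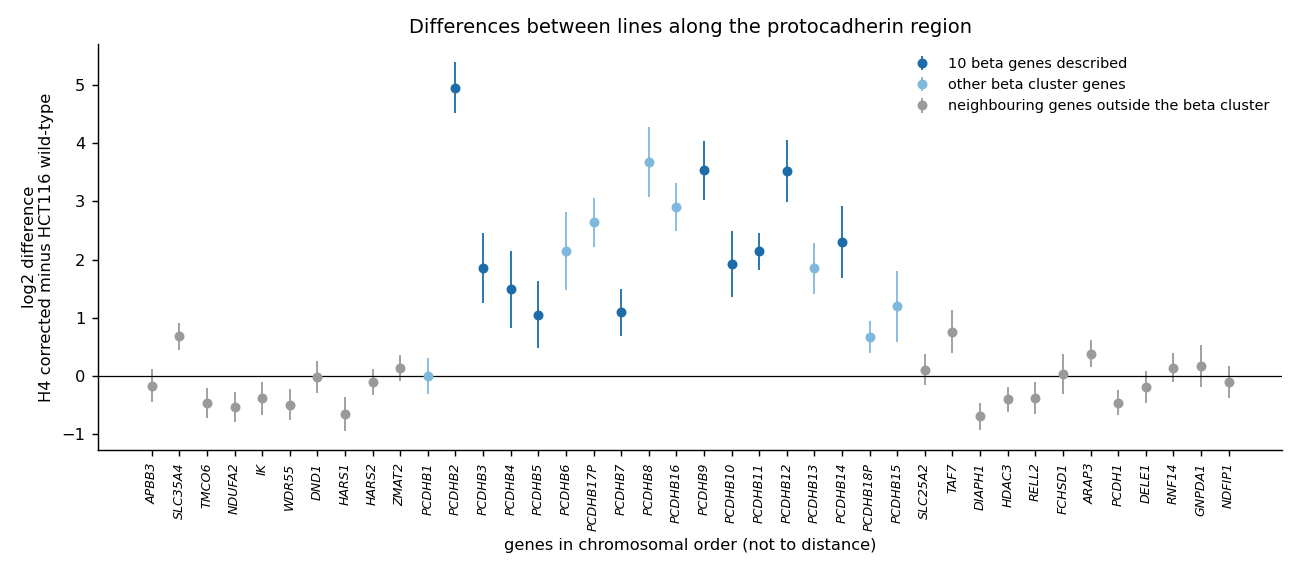
Difference on the log2 scale, corrected H4 minus wild-type HCT116, with 95% intervals from limma, for genes in chromosomal order (evenly spaced, not to distance, alpha and gamma genes left out). The 10 genes described (dark blue) lie between 1.05 and 4.95, PCDHB1 lies at 0.01, the flanking genes (grey) lie between -0.69 and 0.68, and TAF7 (grey, inside the clusters) lies at 0.76.

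Percentile ranks place 42MGBA beside the other lines. In ranks averaged over both STAG2 groups, the 10 genes were higher in 42MGBA than in HCT116 by 7.80 points for PCDHB4 to 60.3 points for PCDHB2, and 10 of 10 passed the test (limma on ranks with no filter), against 39.3% of all genes. The 6 arrays of 42MGBA and the 4 of HCT116 did not overlap for 10 of 10 genes, against 33.5% of all genes in that direction. H4 was above HCT116 by 14.6 points for PCDHB5 to 62.5 points for PCDHB2, with 10 of 10 passing (20.2% of all genes) and 10 of 10 not overlapping (16.6%). With ranks taken over the tested genes alone, PCDHB3 (adjusted p = 0.224, limma) and PCDHB5 (adjusted p = 0.741, limma) no longer passed for H4 against HCT116.

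The 2 lines labelled glioblastoma did not rank the same beta genes alike. PCDHB3 had a median rank of 76.6 in 42MGBA (60.4 to 79.9) and 46.5 in H4 (38.3 to 50.4), without overlap. PCDHB5 had a median rank of 47.8 in 42MGBA (38.5 to 56.6) and 28.8 in H4 (20.9 to 32.8), again without overlap, and these are the 2 of 10 genes higher without overlap in 42MGBA, against 30.5% of all genes. PCDHB9 ran the other way, with 60.1 in 42MGBA (54.6 to 65.2) and 77.3 in H4 (75.3 to 85.4). PCDHB3 and PCDHB5 were higher in 42MGBA by 28.6 points (SE 3.06) and 20.7 points (SE 2.56), and PCDHB9 differed by -18.4 points (SE 1.89). PCDHB5 met the filter on low values only through 2 arrays of 42MGBA, the line where it is higher. In the fit with no filter it differed by 20.7 points as well (SE 2.52, adjusted p = 6.17e-06, limma). The other values here and the next are from the fit on tested genes. PCDHB14 (-15.8), PCDHB10 (-10.5) and PCDHB11 (-5.58) also passed the test as lower in 42MGBA, and PCDHB4 did so in the fit with no filter (-7.94, adjusted p = 0.0241, limma). PCDHB2 (-2.23), PCDHB7 (-0.74) and PCDHB12 (-0.11) did not pass, with 95% intervals of -4.72 to 0.25, -4.70 to 3.21 and -5.24 to 5.03 points. PCDHB2 passed as lower without H4 corrected clone 8-1 (adjusted p = 0.0448, limma) or without 42MGBA corrected clone 53-1 (adjusted p = 0.0311, limma). So 6 of 9 tested genes passed in either direction, against 81.5% of all tested genes in this comparison of 2 separate lines on 2 scales, and the count says nothing particular about the cluster.

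The central question of the study, as its title states, is how expression differs between STAG2-deficient and proficient cells. In H4, 1 of the 10 genes passed the test. PCDHB11 was at 7.15, 7.67 and 7.45 in deficient H4 (parental, 10, 12), against 6.81, 6.87 and 6.93 in corrected H4 (8-1, 8-3, 88-1). All 3 deficient values lie above all 3 corrected values, and PCDHB11 rose by 0.55 (SE 0.14, adjusted p = 0.0386, limma), or 1.47-fold, where 3.31% of 12978 tested genes passed in either direction and 1.3% as higher. PCDHB7 was at 6.43, 7.27 and 6.85 in deficient H4, against 6.17, 6.41 and 6.18 in corrected H4. The groups do not overlap, though the parental line is close to clone 8-3, and the difference of 0.60 (SE 0.17) did not pass (adjusted p = 0.0736, limma).

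The call on PCDHB11 depended on the setting, while its difference lay between 0.43 and 0.69 in all 15 alternatives run. It was lost with H4 fitted alone (adjusted p = 0.138, limma), with quantile normalisation of all arrays (adjusted p = 0.0527, limma) and with the corrected clones of 1 parent number averaged (adjusted p = 0.133, limma). Leaving out deficient clone 10 or 12, or corrected clone 8-1, 8-3 or 88-1, also ended it, with adjusted p (limma) between 0.0814 and 0.126. Without the parental array it held (adjusted p = 0.0107, limma), and PCDHB7 then passed too (0.81, adjusted p = 0.00960, limma).

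The remaining genes in H4 did not pass. PCDHB14 was at 7.46, 7.83 and 6.94 in deficient H4, against 6.52, 6.73 and 7.34 in corrected H4, with overlap and a difference of 0.55 (SE 0.26, adjusted p = 0.314, limma). Differences were 0.40 for PCDHB10, 0.37 for PCDHB12, 0.19 for PCDHB5 and 0.11 for PCDHB9. The other genes had values below 0, with -0.08 for PCDHB2, -0.39 for PCDHB3 and -0.43 for PCDHB4, the last from the fit without the filter. The median over the 10 genes was 0.28, against 0.02 over all genes. Deficient and corrected arrays did not overlap, with deficient higher, for 2 of 10 genes, against 10.3% of all genes.

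**Figure D4:**
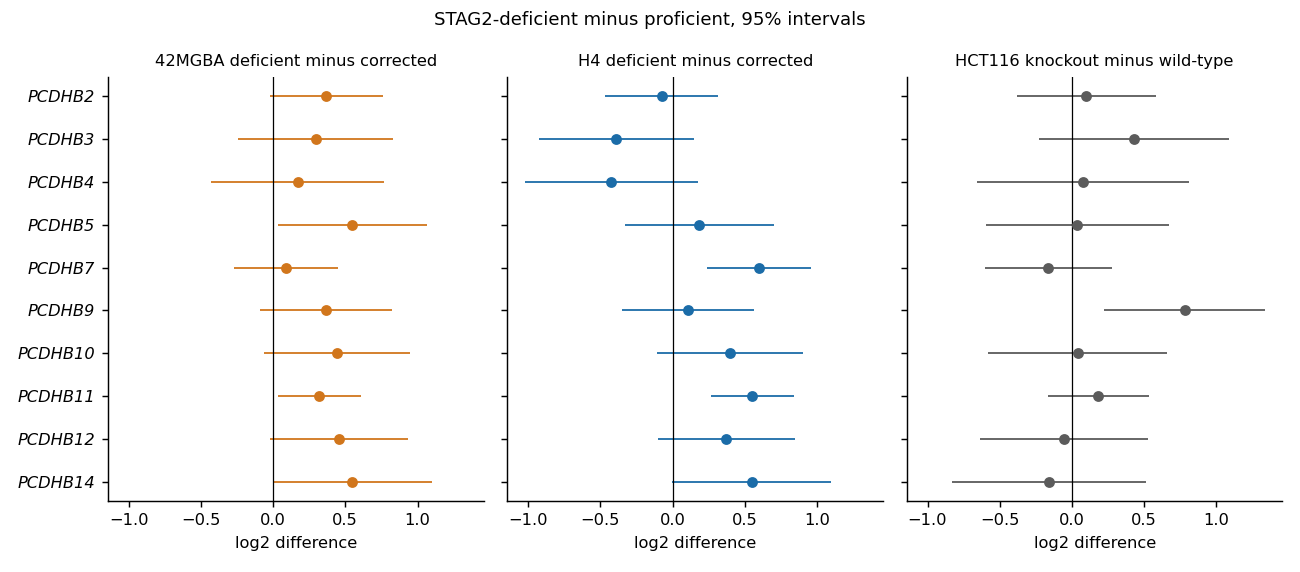
Difference on the log2 scale between deficient and proficient arrays for the 10 genes in cluster order, with 95% intervals from limma with no filter on low values, in 42MGBA (3 against 3 arrays), H4 (3 against 3) and HCT116 (2 against 2). The intervals of PCDHB7 and PCDHB11 in H4, of PCDHB5 and PCDHB11 in 42MGBA and of PCDHB9 in HCT116 lie above 0, and all 10 points in 42MGBA are above 0.

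In 42MGBA none of the genes passed (0 of 10, with 0% of all tested genes called by limma and 512 of 12978 genes, 2 members among them, at an unadjusted p under 0.05). PCDHB5, 1 of these 2 members, met the filter only through the deficient clones 53 and 92. With no filter, 771 of 18417 genes had an unadjusted p under 0.05 by limma, 2 members among them. PCDHB5 was at 4.83, 5.28 and 5.43 in deficient 42MGBA (parental, 53, 92), against 4.96, 4.66 and 4.28 in corrected 42MGBA (53-1, 53-7, 92-6), with overlap. PCDHB14 was at 5.08, 5.30 and 4.84 in deficient 42MGBA, against 4.82, 4.34 and 4.42 in corrected 42MGBA, without overlap but with clones 92 and 53-1 close together. Both differed by 0.55, with SE 0.25 for PCDHB5 and 0.26 for PCDHB14. PCDHB9 was at 5.72, 5.94 and 5.81 in deficient 42MGBA, against 5.60, 5.44 and 5.32 in corrected 42MGBA, without overlap and with a difference of 0.37 (SE 0.22). The differences of all 10 genes were above 0, between 0.09 for PCDHB7 and 0.55, with a median of 0.37, where the median over all tested genes was -0.03 and 39.7% of them were above 0. Deficient was higher without overlap for 2 of 10 genes, PCDHB9 and PCDHB14, against 2.92% of all genes. Clones 53-1 and 53-7 carry the number of pre-Cre clone 53, and 92-6 that of clone 92. In a comparison added after the data had been seen, each pre-Cre clone was above all post-Cre clones of its number for 7 of 10 genes (PCDHB2, PCDHB4, PCDHB5, PCDHB9, PCDHB10, PCDHB11 and PCDHB14), against 13.2% of all genes. For PCDHB5 the overlap of the groups came from the parental array alone. With the parent clone as a block and no parental array, 0 members passed (limma) and the median difference was 0.44. This common direction had been seen in these arrays before and is a description only.

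In HCT116 none of the genes passed either (0 of 10, with 0.131% of tested genes called by limma and 1016 of 12978 genes, 1 member among them, at an unadjusted p under 0.05). PCDHB9 was at 5.36 and 5.85 in the knockout clones (7, 21), against 4.67 and 4.98 in the wild-type clones (24, 27). The groups do not overlap, and the difference of 0.78 (SE 0.27) did not pass (adjusted p = 0.485, limma). PCDHB2 was at 4.64 and 4.64 in knockout clones, against 4.54 and 4.54 in wild-type clones, a difference of 0.10 near the lower quartile of the arrays. The 10 differences ran between -0.16 and 0.78 with a median of 0.06, which lay between 0.07 and 0.16 with 1 array left out, highest without knockout clone 21 (0.16). It was 0.11 without wild-type clone 24 and 0.10 without knockout clone 7. Knockout was higher without overlap for 4 of 10 genes (PCDHB2, PCDHB4, PCDHB9 and PCDHB11), against 18% of all genes.

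Taking the mean over the 3 lines, 0 of the 10 genes passed (0.139% of tested genes called by limma, and 1279 of 12978 genes, 2 members among them, at an unadjusted p under 0.05). PCDHB11 was nearest, at 0.35 (SE 0.08, adjusted p = 0.157, limma), and passed when the parental H4 array was left out (adjusted p = 0.0398, limma). PCDHB9 stood at 0.42 (SE 0.14, adjusted p = 0.307, limma). The differences between lines in the STAG2 effect were tested directly and 0 members passed in any of 3 contrasts by limma, where 0.293% of genes passed for H4 against HCT116, 0.254% for 42MGBA against H4 and 0.0231% for 42MGBA against HCT116. At an unadjusted p under 0.05 by limma there was 1 member for H4 against HCT116, PCDHB7 with a difference of effects of 0.76 (SE 0.27), and 0 in the other 2. Of all 12978 tested genes, 1756 were under it for H4 against HCT116, 1465 for 42MGBA against H4 and 630 for 42MGBA against HCT116. The 1 member therefore does not set the 10 genes apart. The intervals are wide: for PCDHB11 the effect in H4 minus that in HCT116 had a 95% interval of -0.09 to 0.83. The mean and these contrasts were fitted on log2 values and not on ranks, so the differences of 42MGBA entered on its own scale.

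The 10 genes were also compared among themselves from clone to clone within a line. After the mean of each line was taken out, 44 of the 45 pairs of genes correlated above 0 over the 16 arrays, with a median Pearson r of 0.50, between -0.01 for PCDHB3 with PCDHB7 and 0.77 for PCDHB7 with PCDHB11. The points share arrays, and neighbouring paralogs may share probe sequence, which was not tested, so these values are a description. STAG2 status and shifts of whole arrays were not taken out. The same values were not computed for pairs of other genes, so they do not set the 10 genes apart. Clone 10 of deficient H4 was the highest of the 6 H4 arrays for 9 of 10 genes and lay on average 0.56 above the mean of its line. Without clone 10, 39 of 45 pairs were above 0, with a median r of 0.41. In 42MGBA the corrected clones 53-7 and 92-6 lay on average -0.33 and -0.30 from the mean of their line and the third, 53-1, at 0.09. The deficient arrays lay at 0.09 for the parental line, 0.27 for clone 53 and 0.18 for clone 92, so corrected 53-1 was level with the parental line. In H4 without clone 10 the median difference of the 10 genes between deficient and corrected arrays was 0.04, in place of 0.28.

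**Figure D5:**
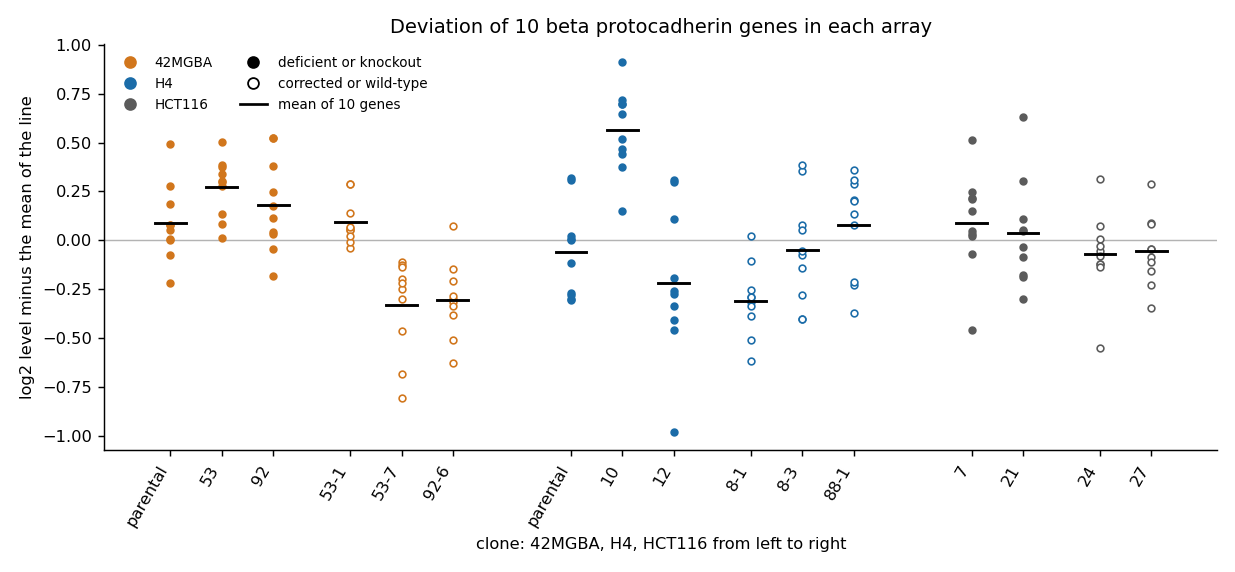
Deviation of each of the 10 genes from the mean of its line on the log2 scale, for every array, with the mean of the 10 genes as a black bar. Filled points are deficient or knockout arrays, left of the open points of corrected or wild-type arrays in each line. H4 clone 10 has a mean of 0.56, and corrected 42MGBA clones 53-7 and 92-6 have means of -0.33 and -0.30.

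The genes whose deviations followed the mean of the 10 most closely over the 16 arrays were WSB1 (r = 0.89), a ubiquitin ligase adaptor, APBB3 (0.88), an adaptor that binds the amyloid precursor protein, TMEM132A (0.88), AFF4 (0.88), a scaffold of the super elongation complex, and JAK2 (0.88), a cytokine receptor kinase. They are the 5 highest of the tested genes outside the 10, chosen for these values, which are a description. APBB3 and AFF4 lie on chromosome 5, and APBB3 is one of the 10 flanking genes on one side of the clusters. Without clone 10 the 5 correlations lay between 0.79 and 0.83.

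The other protocadherins and the cluster's regulators gave the following counts for STAG2 status. In H4 none of the 4 other tested beta genes passed (0 by limma, 0 at an unadjusted p under 0.05), and the pseudogene PCDHB18P, which the filter removed, passed in the fit with no filter (0.47, SE 0.12, adjusted p = 0.0465, limma, where 0.89% of all genes passed as higher). The 12 alpha rows differed by -0.46 to -0.30 in H4 and none passed (0 by limma, 4 at an unadjusted p under 0.05). In 42MGBA 4 of the 4 other tested beta genes and 7 of the 12 alpha rows were above 0, against 39.7% of all tested genes. In HCT116 2 of 4 and 3 of 12 were, against 46.6%. None passed in these 2 lines (0 by limma), with 4 alpha rows in HCT116 at an unadjusted p under 0.05. Of 6 tested non-clustered protocadherins 2 rose in deficient H4, the cell adhesion genes PCDH7 by 1.46 (SE 0.31, adjusted p = 0.0196, limma) and PCDH10 by 1.25 (SE 0.29, adjusted p = 0.0313, limma). Of 8 neural and glial markers NCAM1, the neural cell adhesion molecule, fell by 1.25 (SE 0.32, adjusted p = 0.0487, limma). Of all 12978 tested genes, 169 passed as higher and 260 as lower in deficient H4. Neither of these 2 lists had a call in 42MGBA or HCT116 (0 by limma). Among 14 cohesin and CTCF genes only STAG2 passed, in H4 and in HCT116, and CTCF itself differed by -0.03 (SE 0.09) in H4. Of 13 silencing factors and 10 cytoplasmic partners of protocadherins 0 passed in any line by limma. At an unadjusted p under 0.05 by limma there were 1 silencing factor and 3 partners in H4, 0 of either in 42MGBA, and 0 factors and 3 partners in HCT116. Beside these and the other unadjusted counts given here, 2123 of all 12978 tested genes were under it in H4, 512 in 42MGBA and 1016 in HCT116.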

How the data were processed

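RNA of 16 cultures was measured, 1 array each. The deposited values are log2 expression values, 1 per probe set and array, which the authors made by RMA in Affymetrix Expression Console, as the submitters' processing notes name them. Their versions are not given in the sources used here. Of 33297 rows, 19460 were annotated to 1 gene, 1754 to several and 12083 to none listed, and symbols were updated through Entrez IDs (19429 rows). The row with the highest mean stood for each of 18417 genes. Genes above the array median on at least 2 arrays were tested (12978 genes), which kept 9 of the 10 members and removed PCDHB4. limma 3.58.1 in R 4.3.3 fitted 6 groups together, with 2-sided tests, Benjamini-Hochberg adjustment over all tested genes and a threshold of 0.05. The number of arrays limits the precision. Between lines, 42MGBA entered as percentile ranks within an array. The test was checked on simulated data. Members, lists and alternatives were chosen with earlier results of these data known. Named genes were STAG2, the members, context genes past the threshold or of smallest p in a STAG2 comparison, the genes next to the clusters, and the 5 genes most correlated with the members. Probe sequences were not used here, so paralogs that share probes could not be told apart. Replicate numbers follow accession order and pair no samples, but clone names tie 42MGBA clones 53-1 and 53-7 to 53 and 92-6 to 92. Deviations from the group means within these pairs correlated at 0.20 (53) and -0.17 (92) over 12978 genes. Alternatives were other filters, normalisations and priors, each line alone, and each array left out in turn.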

Additional observations from a re-analysis of the deposited data

How the results depend on the processing

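Over the alternatives, 341 of 357 recomputed counts and medians of the members stayed close to the values reported and 16 moved, with 0 turned in direction. A count was taken as moved beyond 1.5 times the reported one, or from 0 to any call, and a median beyond 1 SD between arrays of a group (0.173 on the log2 scale, 2.08 points for ranks). In H4, deficient against corrected, 1 member passed, against 0 with each line fitted alone, 0 with quantile normalisation, 0 with corrected clones of 1 parent clone averaged and 2 without the parental arrays; leaving out 1 array gave 0 to 2, and the median difference lay between 0.044 and 0.42, the lowest without clone 10. For the mean of the 3 lines the count lay between 0 and 1 with 1 array left out, the 1 without the parental H4 array. The median STAG2 effect in H4 minus that in HCT116 was 0.25 and lay between 0.0053 and 0.38, lowest without clone 10, and 0.05 without HCT116 knockout clone 21. The effect in 42MGBA minus that in H4 had a median of 0.17, between 0.059 and 0.45, highest without clone 10. With deficient in place of proficient arrays, an alternative chosen after seeing the data, the median of H4 minus HCT116 was 2.40 in place of 2.03. In ranks, 42MGBA against H4 had 6 members passing and 5 to 7 under the alternatives. In 42MGBA 0 members passed under every alternative run. STAG2 in HCT116 did not pass with that line fitted alone (adjusted p = 0.0616, limma). The cause of these moves was not tested, beyond there being fewer arrays. With the parent clone as a replicate block in 42MGBA, without its parental array, 0 members passed and the median was 0.44 in place of 0.37. No other paired analysis was possible because the labels give the other groups no shared clone numbers.

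The main limits are few clones per group, 1 line with a knockout and 2 with a correction, values that may be near the floor of the array in HCT116, the separate scale of 42MGBA and a STAG2 mRNA difference there that did not pass the test.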

Other observations

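Among 13 silencing factors listed for the cluster, the widest difference between the lines was in LRIF1, a nuclear partner of the chromatin protein SMCHD1, which is known to silence clustered protocadherins. LRIF1 and the other genes named here were singled out after their values were seen. LRIF1 averaged 3.18 ± 0.04 in corrected H4 (SD, n = 3) and 7.39 ± 0.07 in wild-type HCT116 (SD, n = 2), on the log2 scale, a difference of -4.21 (SE 0.11, adjusted p = 2.61e-13, limma), where 52.7% of tested genes passed in either direction. In ranks LRIF1 lay at a median of 65.3 in 42MGBA, 8.66 in H4 and 67.2 in HCT116. The 13 factors did not run one way between corrected H4 and wild-type HCT116, with differences of -4.21 to 1.53. By limma 3 passed as higher in H4 and 5 as lower, where 3078 of 12978 tested genes passed as higher and 3766 as lower. SMCHD1 differed by -0.53 (SE 0.10, adjusted p = 0.000388, limma) between corrected H4 and wild-type HCT116. The DNA methyltransferase gene DNMT3B differed by -0.98 (SE 0.23, adjusted p = 0.00207, limma), and its median rank was 50.3 in 42MGBA, 51.1 in H4 and 66.9 in HCT116. PCDH18, a non-clustered protocadherin on another chromosome, was 6.29 higher in corrected H4 (SE 0.38, adjusted p = 2.92e-09, limma), with median ranks of 92.2 in 42MGBA, 93.8 in H4 and 19.8 in HCT116. LRIF1 was above the array median on 10 of 16 arrays and PCDH18 on 12, so each met the filter on low values through the lines where it is high. Their adjusted p-values (limma) are therefore given as a description. The part of the genes named here in the levels of the beta cluster was not tested.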
